A study of Homo sapiens with 5 samples.

Results

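The 9 genes described here, PDPN, EMP3, LGALS3, MGMT, OCIAD2, FABP5, CBR1, TNFRSF1A and HFE, are genes known for low expression in gliomas that carry a mutation of IDH1 or IDH2. They were taken by symbol from the 57905 genes with counts, each with 1 identifier, and no value of this series was used in the rule. Total RNA was sequenced from SVG-10B1, an established line of immortalised human astroglial cells, cultured in DMEM with fetal calf serum. The edited group held 3 libraries with the genotype IDH1 R132H/WT, of which 1 came from clone 2 and 2 from clone 6. The wild-type group held 2 libraries of the unedited SVG line, which the labels number as clone 1. The labels name no added agent in either group. Whether replicates came from separate cultures is not stated, and p-values therefore reflect the spread among these libraries, which may be technical. With 2 edited clones and 1 wild-type line, the edit and the identity of the clones cannot be told apart.

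The R132H substitution makes the cytosolic isocitrate dehydrogenase produce 2-hydroxyglutarate, which inhibits dioxygenases that use 2-oxoglutarate, among them the TET enzymes that start DNA demethylation. IDH-mutant gliomas carry dense methylation at many CpG-rich promoters, a state known as the glioma CpG island methylator phenotype, and they express less of many mesenchymal and inflammatory genes than wild-type glioblastoma. PDPN, EMP3 and LGALS3 are cell surface or matrix proteins of the mesenchymal glioblastoma pattern, and MGMT encodes the repair enzyme whose promoter methylation marks tumours that respond to temozolomide.

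Reads assigned to genes came to 13572114 to 16559077 in edited libraries and 17603317 to 21881726 in wild-type libraries, with 0.417 to 9.79% and 2.24 to 7.23% of them on ribosomal RNA genes. Over the 10551 genes with a mean of at least 100 reads, the clone 2 and clone 6 replicate 1 libraries were the closest pair. Their median absolute log2 ratio was 0.0698, against 0.106 between the wild-type replicates, 0.228 between the clone 6 replicates and 0.234 to 0.330 between edited and wild-type libraries. Clone 6 replicate 2 thus stood apart from the other 2 edited libraries, whose labels name different clones. Of the markers that define astrocytes, GFAP had 19 reads over the edited and 16 over the wild-type libraries, S100B had 1 read in all, and AQP4 had 0 in every library. These 3 were thus at or near 0, while 5 of the 10 astrocyte markers passed the filter on low counts. GLUL, glutamine synthetase, had 32.1 to 37.2 CPM (reads scaled to library size) in edited and 70.7 to 73.3 CPM in wild-type libraries (log2 fold change -1.05), the glutamate transporter gene SLC1A3 had 6.90 to 9.88 and 7.70 to 8.09 CPM, and SOX9, a glial transcription factor, 4.50 to 6.82 and 8.23 to 8.31 CPM. Over all 10 astrocyte markers the summed level was 404 to 499 CPM in edited and 247 to 263 CPM in wild-type libraries, most of it from GJA1, a gap junction protein that was higher in edited clones (1.26), whereas GLUL and the transcription factor gene NFIA (-2.77) were lower.

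PDPN differed most between the groups, MGMT was at 0 in every library, and TNFRSF1A, like LGALS3, was well expressed with overlapping groups. Promoter sequences are shown for PDPN, MGMT and TNFRSF1A as examples. Each runs 5′ to 3′ on the gene's strand from 250 bases before to 50 after the first listed start, in lower case with each CG, the dinucleotide that DNA methyltransferases modify, in capitals. The sequences are RefSeq's on GRCh38.p14, a later build than the one the reads were counted on, and methylation was not measured in these libraries.
PDPN (chr1:13583507-13583806, plus strand): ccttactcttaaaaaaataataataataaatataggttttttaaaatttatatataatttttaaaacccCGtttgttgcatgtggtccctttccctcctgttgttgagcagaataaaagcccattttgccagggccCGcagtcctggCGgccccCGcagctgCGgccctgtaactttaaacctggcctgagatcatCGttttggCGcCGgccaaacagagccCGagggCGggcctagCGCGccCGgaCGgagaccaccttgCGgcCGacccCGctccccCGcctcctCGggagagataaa
MGMT (chr10:129466991-129467290, plus strand): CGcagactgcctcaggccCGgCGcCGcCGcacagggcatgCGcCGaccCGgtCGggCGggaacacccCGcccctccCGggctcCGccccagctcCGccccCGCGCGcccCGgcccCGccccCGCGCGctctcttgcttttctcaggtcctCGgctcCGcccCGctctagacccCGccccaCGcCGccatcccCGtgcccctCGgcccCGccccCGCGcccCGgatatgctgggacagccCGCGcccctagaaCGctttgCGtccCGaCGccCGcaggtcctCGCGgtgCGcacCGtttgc
TNFRSF1A (chr12:6342027-6342326, minus strand): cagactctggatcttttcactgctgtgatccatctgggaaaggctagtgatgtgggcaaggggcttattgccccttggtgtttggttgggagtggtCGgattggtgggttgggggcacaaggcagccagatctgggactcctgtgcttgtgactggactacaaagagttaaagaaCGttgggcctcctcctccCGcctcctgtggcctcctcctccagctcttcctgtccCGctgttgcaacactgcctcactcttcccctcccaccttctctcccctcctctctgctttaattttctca

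CG reads the same on both strands, and its matches do not overlap. Windows of this length were counted for 8 of the 9 genes, and FABP5, on chromosome 8, was left out. Of 27305 genes with such a window, 95.8% held at least 1 CG, with a median of 14. MGMT had 45, a number reached by 3.39% of promoters, and LGALS3 had 39 (reached by 8.48%). CBR1 had 27 (27.9%), PDPN 19 (43.0%), EMP3 14 (50.1%), OCIAD2 12 (52.9%) and HFE 10 (56.0%). TNFRSF1A had 4, and 74.7% of promoters held at least as many. Among these windows the most CG-rich belonged to MGMT, a gene without reads, and the next to LGALS3, a well-expressed gene whose groups overlapped. The counted window of PDPN lay near the middle of all promoters. PDPN had 3 starts listed and EMP3 and OCIAD2 had 2 each, and only the first was counted. Whether the number of CG relates to expression was not tested.

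Of the 9 genes, PDPN was the only one called different in the edited clones against wild type. Calls required an adjusted p below 0.05 (Benjamini-Hochberg) in edgeR's quasi-likelihood test, fitted over 16471 genes. Over all of these, 17.1% were called (9.49% lower and 7.64% higher in edited clones), against 1 of 8 of the genes described here (12.5%). MGMT could not be tested, and the other 7 missed the threshold. The edited libraries lay wholly to one side of the wild-type libraries in 5 of the 8 genes, below for PDPN, EMP3 and HFE and above for OCIAD2 and CBR1, a share of 62.5% against 51.5% of all genes tested (25.3% below and 26.1% above). The median log2 fold change was 0.06 for the 8 genes and 0.02 for all genes tested. Both shares were near the background.

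**Figure D1:**
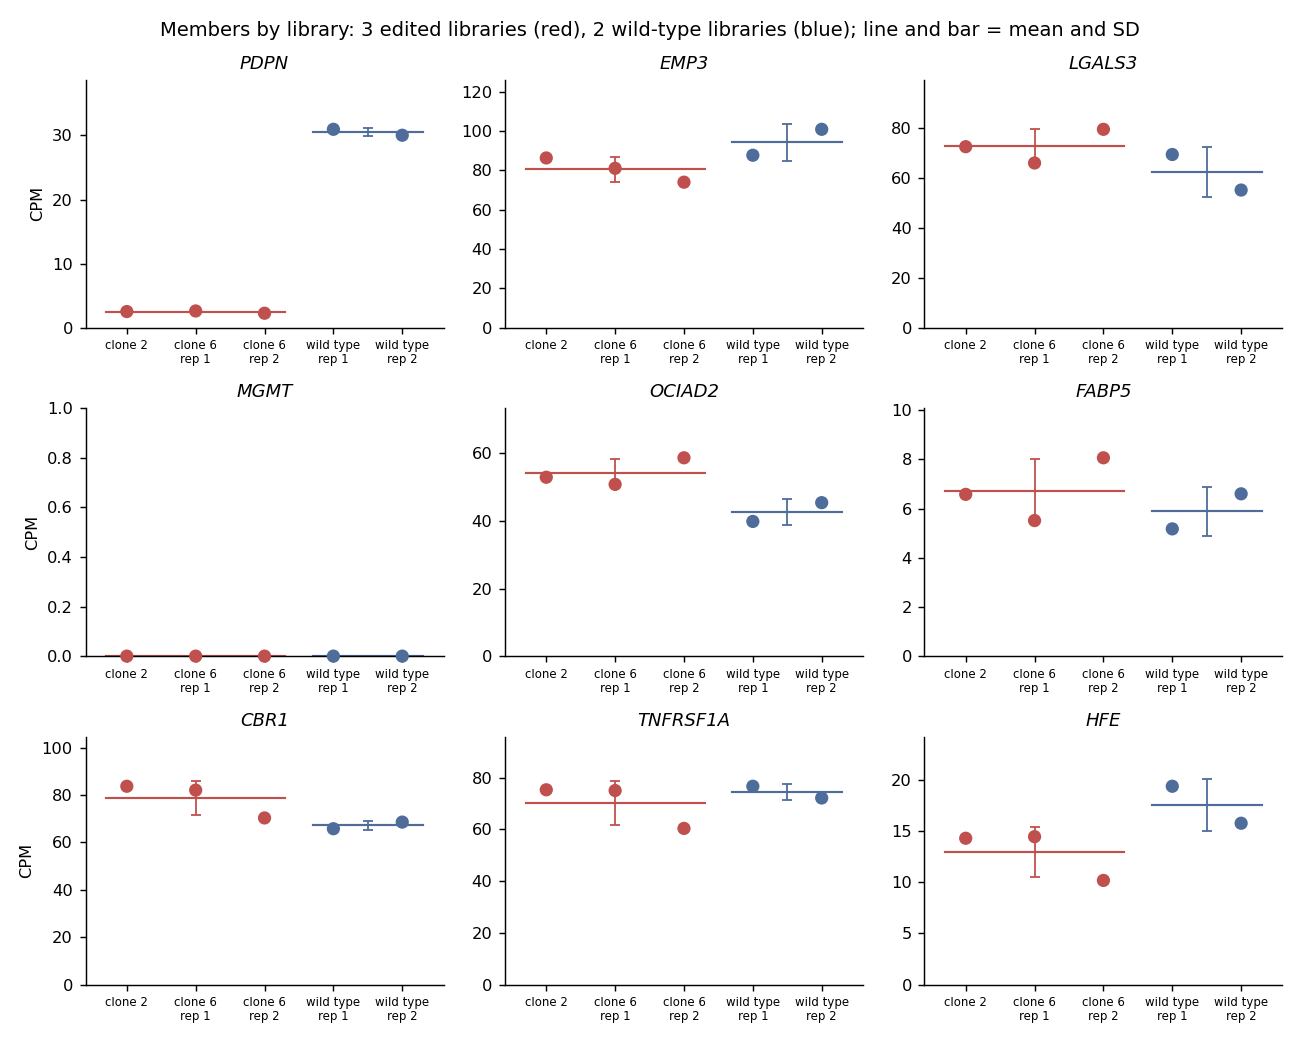
Level of each of the 9 genes in CPM, reads scaled to library size with TMM factors (vertical axes from 0), with 1 point per library. The 3 edited libraries stand left of the 2 wild-type libraries, and lines with bars are the mean and SD. PDPN alone shows a gap many times the spread within groups, and MGMT lies at 0 throughout.

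PDPN (ENSG00000162493, chromosome 1) encodes podoplanin, a mucin-like membrane glycoprotein that activates platelets through the receptor CLEC-2 and is a marker of mesenchymal glioma cells. It stood at 2.52 CPM in clone 2 and at 2.60 and 2.25 CPM in clone 6 replicates 1 and 2, from 39, 34 and 36 reads, against 31.0 and 30.04 CPM in wild-type replicates 1 and 2, from 670 and 546 reads. The 3 edited libraries were alike and all far below both wild-type libraries. PDPN averaged 2.46 ± 0.183 CPM in edited libraries (SD, n = 3) and 30.5 ± 0.654 CPM in wild-type libraries (SD, n = 2). It fell 12.4-fold, a log2 fold change of -3.63 (SE 0.137, 95% interval -3.96 to -3.31, adjusted p = 0.000157). Its adjusted p ranked 4 among all genes tested, and its log2 fold change ranked 167 from the most negative. In bulk RNA, fewer cells with the transcript and less transcript per cell cannot be told apart.

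EMP3 (ENSG00000142227, chromosome 19) encodes a tetraspan membrane protein of the PMP22 family. Its levels were 86.4 CPM in clone 2 with 81.1 and 74.0 CPM in clone 6, against 87.8 and 101 CPM in the wild-type replicates. Clone 2 lay close to the lower wild-type library, although all 3 edited libraries were below it. The means were 80.5 ± 6.19 CPM in edited and 94.4 ± 9.33 CPM in wild-type libraries, with a log2 fold change of -0.23 (SE 0.11, 95% interval -0.49 to 0.03, adjusted p = 0.202). On the linear scale the interval ran from 0.712 to 1.02 of the wild-type level. EMP3 overlaps CCDC114 on the opposite strand by 217 bases in GENCODE 29, but CCDC114 had at most 6 reads in any library.

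LGALS3 (ENSG00000131981, chromosome 14) encodes galectin-3, a lectin that binds beta-galactosides. It had 72.6 CPM in clone 2 with 66.1 and 79.6 CPM in clone 6, against 69.5 and 55.2 CPM in the wild-type replicates. The groups overlapped, and the spread between the wild-type libraries was wider than the distance between the group means. The log2 fold change was 0.22 (95% interval -0.10 to 0.54, adjusted p = 0.299). OCIAD2 (ENSG00000145247, chromosome 4) encodes a mitochondrial protein with an OCIA domain. It had 53.0 CPM in clone 2 with 50.9 and 58.7 CPM in clone 6, against 39.9 and 45.4 CPM in the wild-type replicates. All edited libraries were above both wild-type libraries, a direction opposite to the one known from tumours. The means were 54.2 ± 4.07 CPM in edited and 42.7 ± 3.93 CPM in wild-type libraries, with a log2 fold change of 0.35 (SE 0.113, 95% interval 0.08 to 0.61) that missed the threshold at an adjusted p of 0.082. Without clone 6 replicate 2 OCIAD2 passed it, with a log2 fold change of 0.27 and an adjusted p of 0.0353. That fit called 5971 of all genes, against 2822 with every library. Its edited libraries, clone 2 and clone 6 replicate 1, were the closest pair in the series.

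MGMT (ENSG00000170430, chromosome 10) encodes the methyltransferase that removes alkyl groups from guanine in DNA. Not 1 of the 84418819 reads in the 5 libraries was assigned to it. A count of 0 allows up to 3 reads, which is 0.188 to 0.230 CPM in the edited libraries and 0.139 to 0.165 CPM in the wild-type libraries (counting error only). Of 19263 protein-coding genes, 3180 (16.5%), MGMT among them, were at 0 in every library, and a gene at 0 in both groups allows no comparison. An antisense gene that overlaps it by 286 bases was also at 0. The nearest tested neighbours on either side were expressed in all libraries. MKI67, a proliferation marker, had 308, 316 and 154 CPM in clone 2 and clone 6 replicates 1 and 2, against 374 and 324 CPM in the wild-type replicates (adjusted p = 0.354). GLRX3, an iron-sulfur glutaredoxin, had 112, 107 and 136 CPM, against 92.3 and 105 CPM (adjusted p = 0.211).

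Of the genes for metabolic enzymes and carriers, CBR1 (ENSG00000159228, chromosome 21), an NADPH-dependent carbonyl reductase, had 83.7 CPM in clone 2 with 82.1 and 70.4 CPM in clone 6, against 65.8 and 68.6 CPM in the wild-type replicates. Clone 6 replicate 2 lay just above the wild-type libraries and the other edited libraries further above. The means were 78.7 ± 7.30 CPM in edited and 67.2 ± 1.98 CPM in wild-type libraries, with a log2 fold change of 0.23 (95% interval -0.03 to 0.48, adjusted p = 0.194). Without clone 6 replicate 2 CBR1 passed the threshold at a log2 fold change of 0.29 and an adjusted p of 0.00777. That fit called 5971 of all genes, against 2822 with every library. Its edited libraries, clone 2 and clone 6 replicate 1, were the closest pair in the series. FABP5 (ENSG00000164687, chromosome 8), a carrier of fatty acids in the cytosol, had 6.58 CPM in clone 2 with 5.51 and 8.07 CPM in clone 6, against 5.18 and 6.60 CPM in the wild-type replicates. The groups overlapped, and the log2 fold change of 0.20 had a 95% interval of -0.32 to 0.72 (adjusted p = 0.578). FABP5 has near-identical processed copies, so its assigned reads are uncertain. Of 13 FABP5 pseudogenes listed, 3 had any reads, with at most 7 in 1 library, against 72 to 129 for FABP5 in edited libraries. An antisense gene that overlaps FABP5 by 94 bases had 8, 8 and 22 reads in clone 2 and clone 6, against 4 and 3 reads in wild type, and whether reads were counted by strand is not known here.

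TNFRSF1A (ENSG00000067182, chromosome 12) encodes the death domain receptor through which tumour necrosis factor activates NF-kB or caspases. It had 75.4 CPM in clone 2 with 75.1 and 60.4 CPM in clone 6, against 76.7 and 72.2 CPM in the wild-type replicates. Only clone 6 replicate 2 lay outside the range of the wild-type libraries. The log2 fold change was -0.08 (95% interval -0.37 to 0.21, adjusted p = 0.677), and it was 0.00086 without that library. HFE (ENSG00000010704, chromosome 6) encodes a protein like MHC class I that binds beta-2-microglobulin and the transferrin receptor and limits iron uptake. It had 14.3 CPM in clone 2 with 14.5 and 10.2 CPM in clone 6, against 19.4 and 15.8 CPM in the wild-type replicates. All edited libraries were lower, clone 6 replicate 2 by most. The means were 13.0 ± 2.43 CPM in edited and 17.6 ± 2.56 CPM in wild-type libraries, and the log2 fold change of -0.44 (SE 0.193, 95% interval -0.90 to 0.02) missed the threshold (adjusted p = 0.166).

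**Figure D2:**
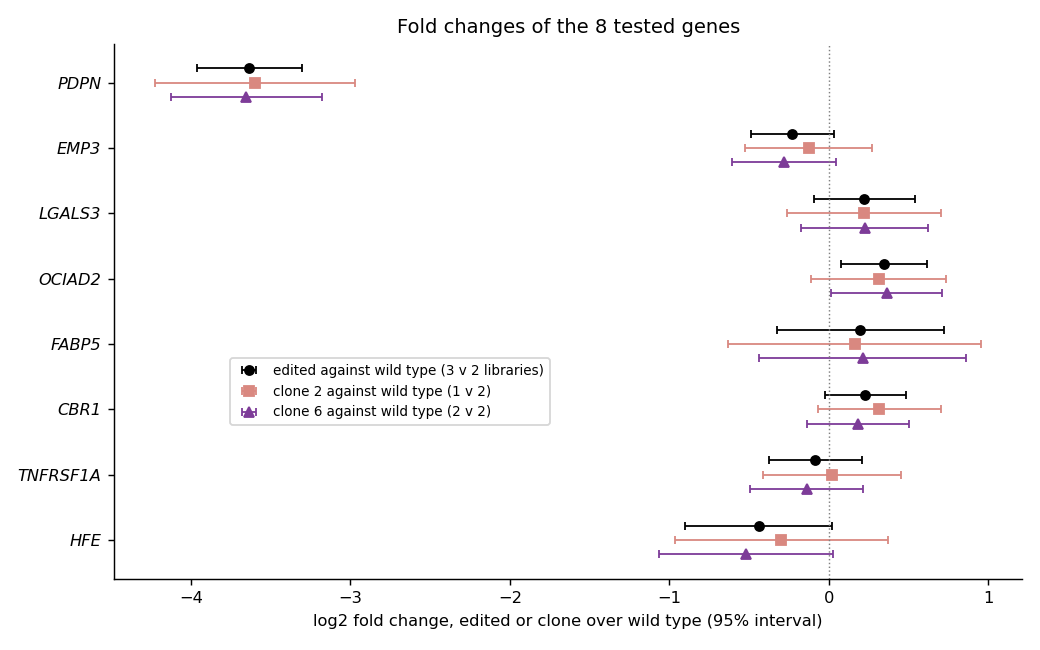
Log2 fold change over wild type (horizontal axis) of the 8 tested genes, for the 3 edited libraries together and for clone 2 and clone 6 alone, with 95% intervals from edgeR. The PDPN estimates lie between -3.65 and -3.60 and those of the other 7 genes within 0.52 of 0.

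The clones were compared one by one in a fit with 3 groups, in which clone 2, with 1 library, is assumed to vary like the other groups. Since the libraries of clone 2 and clone 6 replicate 1 were closer to each other than the replicates of clone 6 were, whether the clone labels hold was not settled, and the values go by those labels. PDPN was called in both, at -3.60 in clone 2 (SE 0.262, adjusted p = 0.0054) and -3.65 in clone 6 (SE 0.198, adjusted p = 0.00112), where 3.81% (2.16% lower, 1.65% higher) and 8.98% (5.11% lower, 3.87% higher) of all genes were called. None of the other 7 genes was called in either clone, and the comparisons share the wild-type libraries. HFE was -0.30 in clone 2 and -0.52 in clone 6, and TNFRSF1A 0.02 and -0.14. Tested directly, clone 6 and clone 2 differed in PDPN by -0.06 (95% interval -0.69 to 0.58). In this comparison 0 of the 8 genes was called by edgeR or DESeq2 and 0 had an unadjusted p below 0.05 in edgeR, where 0 of all genes tested were called and 114 had an unadjusted p below 0.05. The intervals for the other genes reached from -0.89 for HFE to 0.85 for FABP5, so differences between clones within each gene's interval were not excluded.

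Levels of different genes can be compared only per length of transcript. Divided by the length of all annotated exons in GENCODE 29, EMP3 had the highest level of the 9 in both groups, 48.3 ± 3.71 CPM per kilobase in edited and 56.6 ± 5.60 in wild-type libraries. CBR1 (32.1 in edited, 27.4 in wild type) and LGALS3 (30.4 in edited, 26.02 in wild type) came next and overlapped each other in both groups. OCIAD2 (21.8) stood above TNFRSF1A (17.5) in every edited library, while in wild-type libraries TNFRSF1A (18.6) and OCIAD2 (17.2) overlapped. FABP5 (3.24 in edited, 2.84 in wild type) and HFE (2.29 in edited, 3.10 in wild type) were low in both groups. PDPN, at 0.663 ± 0.0495 CPM per kilobase, was the lowest gene with reads in edited libraries, and in wild-type libraries it stood above HFE and FABP5 at 8.23 ± 0.176.

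Among genes with a mean log2 CPM of at least 2, those nearest to each member were found from the root mean square difference of centred log2 CPM over the 5 libraries. TBX3, a T-box repressor, was nearest to PDPN at 0.117 and IL1R1, the interleukin-1 receptor, next at 0.188, and none of the 11095 genes compared was within 0.1. TBX3 had 4.52, 4.75 and 3.63 CPM in clone 2 and clone 6, against 44.3 and 49.9 CPM in the wild-type replicates, and IL1R1 had 2.13, 1.68 and 1.94 CPM, against 28.1 and 20.6 CPM. Both were chosen by their nearness to PDPN in the same 5 libraries, so their lower calls follow from the choice. The difference is absolute, so the number of genes within 0.1 depends on the size of a change as well as on its pattern. The other members, with smaller changes, had more. There were 842 genes within 0.1 of OCIAD2 (CHCHD3 and FAM208B nearest) and 762 of CBR1 (HIST1H2BK and GTF2E1). TNFRSF1A had 743 (RBFOX2 and KIAA1841) and EMP3 460 (RABIF and PURA). LGALS3 had 213 (PIGP and RP11-427H3.3), HFE 109 (STARD9 and FSTL1) and FABP5 106 (GTF2H2B and ZNF622).

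A further 26 tested genes described as low or promoter-methylated in IDH-mutant glioma moved in both directions, with 5 lower, 2 higher and 19 not called (26.9% called) and a median log2 fold change of -0.02. SLC16A3, a lactate exporter, fell by 3.01 on the log2 scale, with 6.84, 5.82 and 4.32 CPM in clone 2 and clone 6 against 49.9 and 40.9 CPM in the wild-type replicates. NNMT, nicotinamide N-methyltransferase, had 10.4, 10.8 and 24.3 CPM against 93.5 and 81.3 CPM (log2 fold change -2.52). G0S2, an inhibitor of triglyceride lipase, and LGALS1, galectin-1, fell by 0.66 and 0.34. In the opposite direction, IGFBP2, an insulin-like growth factor binding protein, had 24.8, 29.1 and 27.1 CPM against 5.78 and 5.56 CPM (2.25), and ANXA1, an annexin, rose by 0.84. CA3 and RARRES2 were at 0 in every library, as MGMT was. SLC16A3 and IGFBP2 kept their calls whichever library was left out. Without wild-type replicate 1 the calls of NNMT (adjusted p = 0.0667), G0S2 (0.119), LGALS1 (0.256) and ANXA1 (0.235) were lost, and without wild-type replicate 2 those of G0S2 (0.111), LGALS1 (0.198) and ANXA1 (0.113). Without clone 6 replicate 1 the calls of G0S2 (0.0555) and LGALS1 (0.116) were lost, and without clone 2 that of LGALS1 (0.117). Over these fits 2 to 10 of the list were called lower and 1 to 5 higher.

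Of 8 tested genes described as high in IDH-mutant or proneural glioma, 2 were higher, 0 lower and 6 not called, with a median log2 fold change of 0.53. CHD7, a chromatin remodeller, averaged 5.98 ± 0.791 CPM in edited and 3.07 ± 0.0933 CPM in wild-type libraries (0.96), a call lost when any of 4 libraries was left out (adjusted p of 0.0645 to 0.159 without wild-type replicate 1 or 2, clone 2 or clone 6 replicate 1). ATCAY, which encodes the neuronal protein caytaxin, had 115 reads in edited and 3 reads in wild-type libraries. The ratio of its levels was 34.3, with an exact 95% interval of 11.4 to 169 for counting error.

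**Figure D3:**
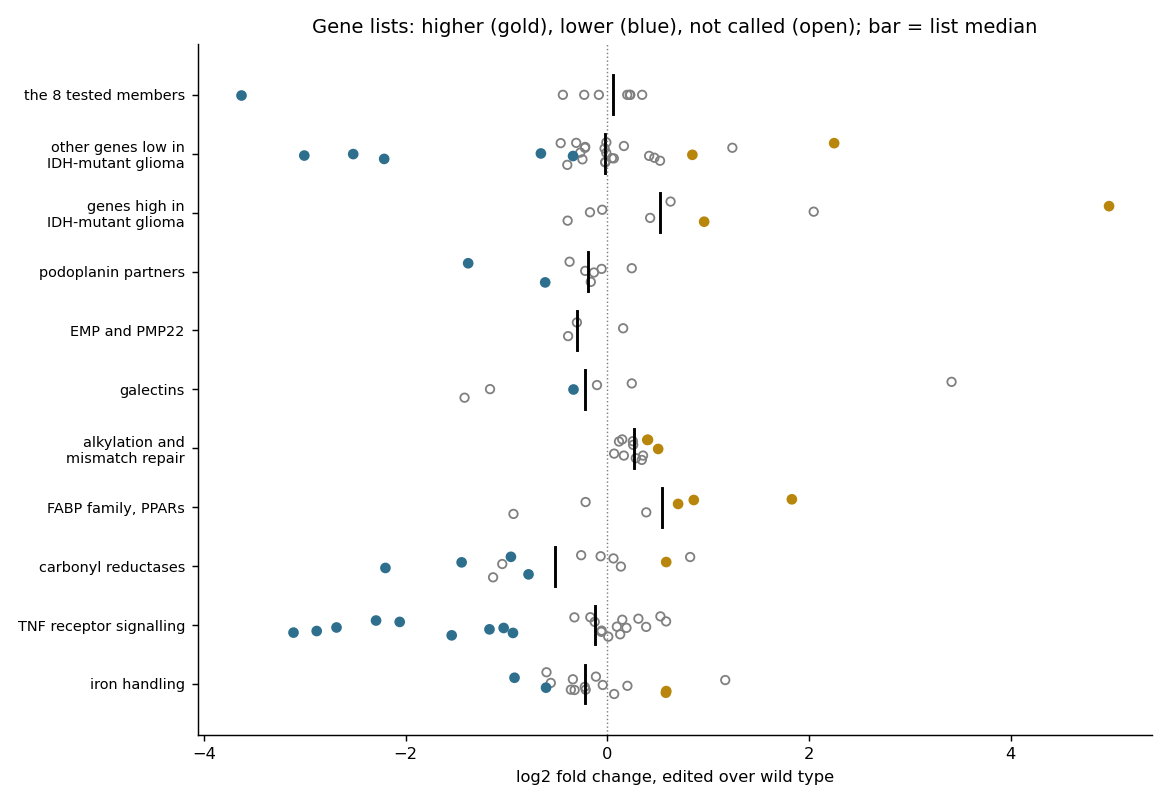
Log2 fold change of edited over wild-type libraries (horizontal axis) for the tested genes of each list, with genes called higher in gold, called lower in blue and not called open, and the median of each list as a bar. The TNF receptor list holds 9 blue and 0 gold points, and the EMP and PMP22 list holds 0 called genes.

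The relatives of the surface proteins mostly missed the threshold. Of the 8 tested podoplanin partners, 2 were lower and 0 higher. MMP14, a membrane metalloproteinase, had 39.7, 34.2 and 26.8 CPM in clone 2 and clone 6 against 93.6 and 81.0 CPM in the wild-type replicates (log2 fold change -1.38), and RDX, radixin, which ties membrane proteins to actin, had 118, 111 and 131 CPM against 185 and 183 CPM (-0.62). The call of MMP14 did not hold when wild-type replicate 1 was left out (adjusted p = 0.0555), nor that of RDX without wild-type replicate 1 (0.0902) or 2 (0.077). The podoplanin receptor gene CLEC1B and the chemokine gene CCL21 were at 0 in all libraries. EMP1 (0.16), EMP2 (-0.39) and PMP22 (-0.30), the tetraspan relatives of EMP3, were not called. The galectin list held 6 tested genes, among them LGALS3BP, a galectin-binding protein that is not itself a galectin. LGALS1 was lower, and LGALS8 (0.24, adjusted p = 0.131) was among the 5 not called. OCIAD1, the paralog of OCIAD2 on the same chromosome, had 113, 113 and 123 CPM against 97.0 and 102 CPM (0.23, adjusted p = 0.130).

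Unlike MGMT, the other repair genes listed were all expressed. Of 12 tested alkylation and mismatch repair genes, 3 were higher, 0 lower and 9 not called, with a median log2 fold change of 0.27. MSH3, a mismatch repair protein, had 61.2, 58.1 and 66.2 CPM in clone 2 and clone 6 against 47.4 and 46.1 CPM in the wild-type replicates (0.40), and PMS2, of the MutL complex, rose by 0.50. Both calls were lost without wild-type replicate 1 (adjusted p of 0.192 for MSH3 and 0.212 for PMS2), wild-type replicate 2 (0.206 and 0.234), clone 2 (0.103 and 0.0878) or clone 6 replicate 1 (0.072 and 0.0875).

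In the pathway of FABP5, 6 genes for carriers of fatty acids, bile acids and retinoids and for PPAR nuclear receptors were tested, and 3 were higher and 0 lower. PPARG, a receptor for fatty acids, had 27.2, 25.2 and 37.8 CPM in clone 2 and clone 6 against 15.5 and 17.8 CPM in the wild-type replicates (0.86), PPARD, to which FABP5 is known to deliver ligands, rose by 0.70, and FABP6, a bile acid binding protein, rose by 1.83 on the log2 scale, from 14, 11 and 16 reads in edited libraries against 4 and 6 reads in wild type. Without wild-type replicate 1 or 2 the calls of PPARG (adjusted p = 0.226 and 0.139), PPARD (0.176 and 0.16) and FABP6 (0.237 and 0.111) were lost. Without clone 2 those of PPARG (0.056) and FABP6 (0.0749) were lost, and without clone 6 replicate 1 those of PPARD (0.0533) and FABP6 (0.0871). FABP3 was not called (-0.22), and FABP7, the brain form, was at 0 in every library. Among 12 tested carbonyl reductases, aldo-keto reductases and other oxidoreductases, 4 were lower and 1 higher (41.7% called). AKR1B1, aldose reductase, had 62.7, 61.0 and 74.3 CPM against 128 and 128 CPM (-0.96). PTGR1, prostaglandin reductase 1, had 8.32, 8.96 and 10.8 CPM against 23.8 and 27.1 CPM (-1.44). Both kept their calls whichever library was left out. CBR4 (-0.78), AKR1C1 (-2.20, from 20 reads in edited and 84 in wild-type libraries) and AKR7A2 (0.58) lost theirs without wild-type replicate 1 (adjusted p of 0.0911, 0.239 and 0.0992) or replicate 2 (0.0896, 0.181 and 0.0653), and AKR1C1 also without clone 6 replicate 1 (0.0716). AKR1C1 has near-identical paralogs, so its reads are uncertain. CBR3, the neighbour and paralog of CBR1, was not called (-0.26, adjusted p = 0.433).

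TNFRSF1A was not called, whereas other genes of TNF receptor signalling were. Of 23 tested genes in this list, 9 were lower, 0 higher and 14 not called (39.1% called), with a median log2 fold change of -0.12. TNFAIP3, which encodes the ubiquitin editor A20, had 5.87, 4.90 and 10.7 CPM in clone 2 and clone 6 against 71.9 and 52.8 CPM in the wild-type replicates (log2 fold change -3.11). NFKBIA, the inhibitor IkB-alpha, had 23.8, 24.5 and 33.96 CPM against 185 and 168 CPM (-2.69), and BIRC3, an inhibitor of apoptosis, had 4.64, 5.51 and 8.63 CPM against 31.3 and 30.4 CPM (-2.29). All edited libraries were several-fold below both wild-type libraries for each of these, with clone 6 replicate 2 the highest of the edited. TRAF5, an adaptor, fell by 1.54. TNFRSF1B, the second TNF receptor, had 0.194, 0.536 and 0.375 CPM against 3.14 and 2.26 CPM (-2.88), and the death receptor FAS had 1.10, 0.766 and 1.19 CPM against 4.94 and 3.63 CPM (-2.06). TNFAIP3, NFKBIA, BIRC3 and TRAF5 kept their calls whichever library was left out, while TNFRSF1B (adjusted p = 0.0747) and FAS (0.0691) lost theirs without wild-type replicate 1, and 6 to 10 genes of the list were called lower over these fits. LTBR, the lymphotoxin receptor, was near 0 and not tested.

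**Figure D4:**
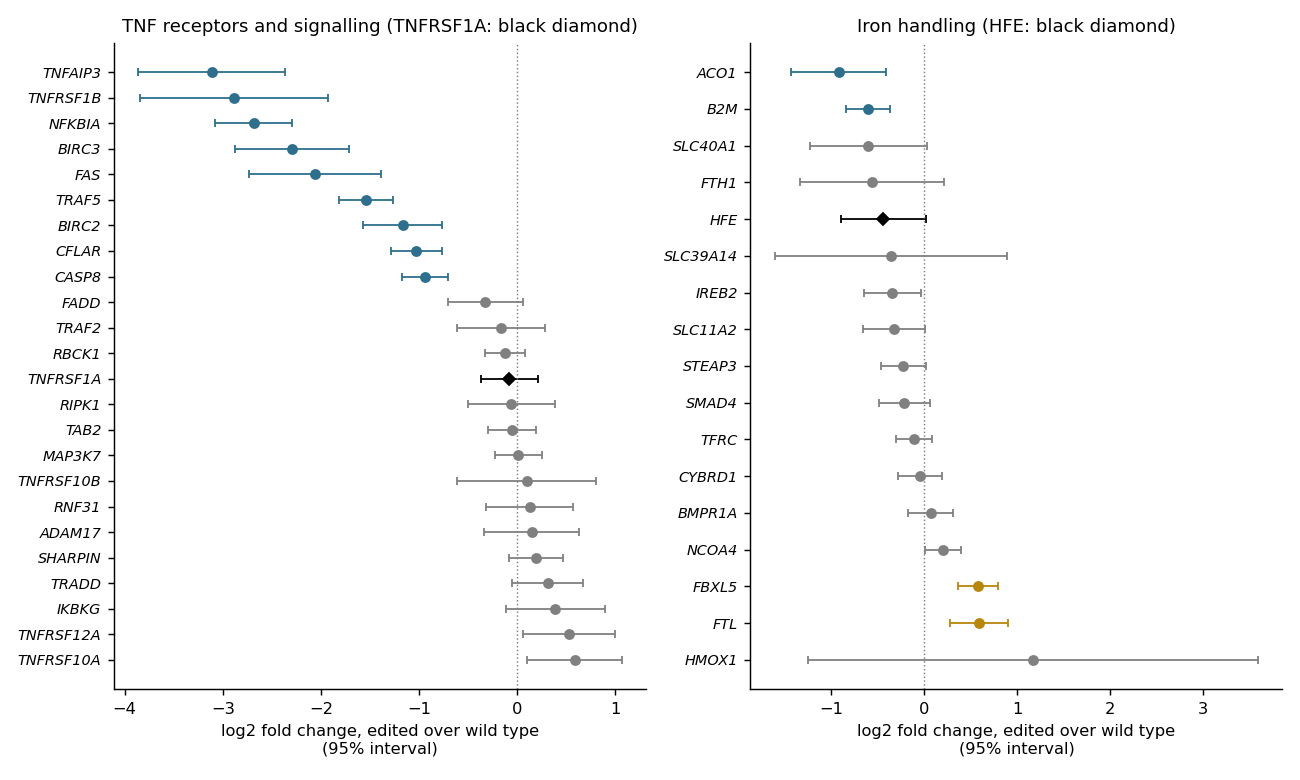
Log2 fold change of edited over wild-type libraries (horizontal axes) with 95% intervals for the tested genes of TNF receptor signalling, with TNFRSF1A as a black diamond, and of iron handling, with HFE as a black diamond. Lower calls are blue, higher calls gold and the rest grey. TNFRSF1A lies at -0.08, and the 9 blue genes reach -3.11.

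Genes of iron handling, the process in which HFE acts, moved in both directions. Of 16 tested, 2 were lower, 2 higher and 12 not called. B2M, the partner of HFE at the cell surface, had 365, 347 and 401 CPM in clone 2 and clone 6 against 594 and 536 CPM in the wild-type replicates (-0.61), and ACO1, the aconitase that doubles as an iron sensor, had 189, 180 and 296 CPM against 440 and 399 CPM (-0.92). FTL, the ferritin light chain, had 2407, 2366 and 2878 CPM against 1556 and 1844 CPM (0.59), and FBXL5, which targets an iron regulatory protein for degradation, had 116, 118 and 110 CPM against 73.9 and 79.6 CPM (0.58). TFRC, the transferrin receptor, was not called (-0.11, adjusted p = 0.389). None of the 4 calls held in every fit with a library left out. Without wild-type replicate 1 or 2 the adjusted p-values were 0.107 and 0.0579 for B2M, 0.201 and 0.138 for ACO1, 0.209 and 0.0883 for FTL and 0.104 and 0.0647 for FBXL5. ACO1 and FTL also lost theirs without clone 2 (0.0845 and 0.0741) or clone 6 replicate 1 (0.0773 and 0.0515), and over all these fits 0 to 8 iron genes were called lower and 0 to 3 higher.

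Markers of other cell types moved with the groups as well, and their part in these results was not tested. Of 8 fibroblast and pericyte markers, 6 were tested, 1 was higher and 3 lower. Their summed level was 570 to 1781 CPM in edited and 1888 to 2146 CPM in wild-type libraries, the lowest in clone 6 replicate 2. Most of it came from COL1A1, which was not called (-0.52, adjusted p = 0.468). COL1A1 had 1607, 1645 and 512 CPM in clone 2 and clone 6 against 1894 and 1691 CPM in the wild-type replicates. Of 6 endothelial markers, PECAM1 was not found among the genes with counts, and CDH5 and KDR were near 0 and not tested. The 3 tested were all called (1 higher, 2 lower). The summed level over the list was 3.06 to 4.00 CPM in edited and 20.2 to 21.5 CPM in wild-type libraries. Most of the wild-type sum came from TIE1, a receptor kinase with 1.13 to 1.29 CPM in edited and 18.9 to 19.3 CPM in wild-type libraries, while ERG, a transcription factor gene, was higher in edited clones (2.24 against 0.364 CPM on average). The 8 macrophage and microglia markers summed to 1.00 to 1.61 CPM in edited and 1.76 to 2.73 CPM in wild-type libraries. TYROBP was at 0 and PTPRC at 1 read in each group, so both of these defining markers were at or near 0. Most of the sum in every library came from CSF1R, the only marker of this list that was tested. CSF1R had 15, 15 and 11 reads in clone 2 and clone 6 against 48 and 27 reads in the wild-type replicates. It was not called (adjusted p = 0.0925). Of the tested markers, 1 of 5 for astrocytes was higher and 2 were lower, 1 of 4 for neurons was higher and 0 were lower, and of 3 for oligodendrocytes 1 was higher and 1 lower. Over the 17 lists together, 197 distinct genes had counts and 140 were tested, of which 18 were higher and 30 lower (34.3% called). Of all genes tested, 17.1% were called (7.64% higher and 9.49% lower), which is the background for each single list as well. The lists were chosen with earlier results of these data known.

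Of the genes beside the 9 on the chromosome, 9 of 54 were called (16.7%, against 17.1% of all genes tested), with 2 higher and 7 lower, counting the nearest 3 tested protein-coding genes on each side in GENCODE 29 order. PDPN had 3 called neighbours of 6, all lower. TNFRSF1B is among them, DHRS3, a retinal reductase, had 21.2, 18.2 and 19.7 CPM in clone 2 and clone 6 against 61.9 and 36.9 CPM in the wild-type replicates (-1.33), and KAZN, a desmosome-associated protein, had 0.968, 0.766 and 0.688 CPM against 2.13 and 2.75 CPM (-1.58). The genes between and beyond them, VPS13D (0.04), PRDM2 (0.30) and TMEM51 (0.02), were not called. When wild-type replicate 1 was left out, the calls of DHRS3 (adjusted p = 0.0573) and KAZN (0.0814) were lost, and KAZN also lost its call without wild-type replicate 2 (0.123) or clone 6 replicate 1 (0.054). The log2 fold changes without wild-type replicate 1 were -0.91 for DHRS3, -1.76 for KAZN and -2.62 for TNFRSF1B (adjusted p = 0.0747), in a fit that called 500 of all genes, against 2822 with every library. PTPRE, a phosphatase gene next but one to MGMT, had 2.65, 2.53 and 3.13 CPM against 14.2 and 10.0 CPM (-2.12, adjusted p = 0.0018) and kept its call whichever library was left out. PAG1, an adaptor beside FABP5, had 12.8, 11.8 and 17.8 CPM against 2.68 and 3.14 CPM (2.29), a call that also held in every such fit. LGALS3, CBR1 and TNFRSF1A had 0 called neighbours among 6 each. The other 4 called neighbours, ZNF114 beside EMP3 (-2.63), SGCB near OCIAD2 (-0.52), TPD52 near FABP5 (0.84) and HIST1H4C beside HFE (-0.47), lost their calls without wild-type replicate 1 (adjusted p of 0.151, 0.185, 0.103 and 0.168) or replicate 2 (0.0953, 0.132, 0.109 and 0.126). ZNF114, SGCB and HIST1H4C also lost theirs without clone 6 replicate 1 (0.0521, 0.0781 and 0.0766) and SGCB without clone 2 (0.0607), and HIST1H4C shares sequence with other histone genes, so its reads are uncertain.

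**Figure D5:**
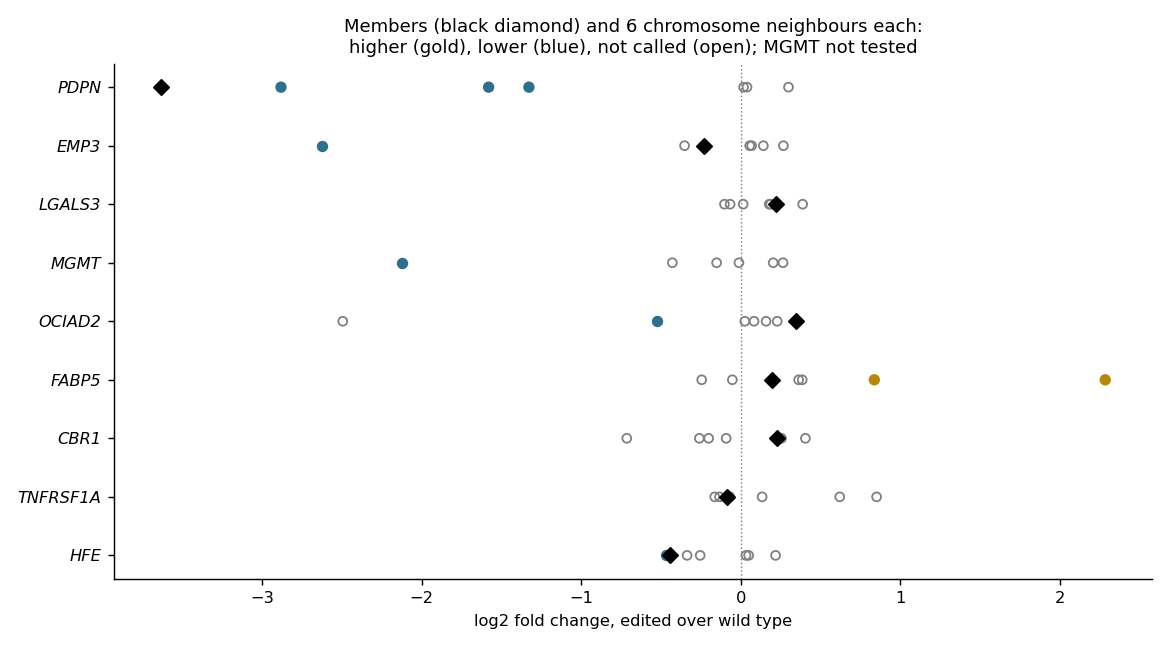
Log2 fold change of edited over wild-type libraries (horizontal axis) of each of the 9 genes (black diamond; MGMT was not tested) and of its 6 nearest tested neighbours on the chromosome, called higher in gold, lower in blue and not called open. PDPN at -3.63 has 3 lower neighbours, and LGALS3, CBR1 and TNFRSF1A have none.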

How the data were processed

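Libraries from total RNA were run on an Illumina HiSeq, per the labels' protocols. Trimmomatic, STAR, HTSeq and the build hg19 (GRCh37) are named in the submitters' processing notes, with neither versions nor roles. No annotation release or strand setting is given in the sources used here. Deposited values are whole-number read counts per gene, not normalized, 1 file per library. Of 63677 genes listed, 5772 had an empty value and were left out, and 0 columns belonged to other samples.

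The analysis used edgeR 4.0.16 under R 4.3.3 (TMM scaling, filterByExpr, quasi-likelihood F test, two-sided, Benjamini-Hochberg over all genes tested). Residual degrees of freedom were 3 for genotype and 2 with clones as groups. CPM used TMM-scaled library sizes, and log2 CPM a prior count of 2. Intervals of ratios and floors cover counting error only. Alternatives were other scalings and filters, DESeq2 1.42.0, each library left out, a replicate block, the ribosomal RNA share as a covariate, and clone 2 summed with clone 6 replicate 1. For the total over the gene lists, leave-outs and the last 3 were added after seeing the data, as were all alternatives for single lists and for genes outside the 9. GENCODE 29 gave gene order, type and exon length, joined by identifier, and RefSeq the promoters. The procedure was run on simulated data in which all genes had the same dispersion and the libraries of a group were alike. That setting does not include a library that stands apart, as clone 6 replicate 2 did. The 9 genes and all lists were chosen with earlier results of these data known. Named beside the 9 genes were up to 6 called genes per list by absolute log2 fold change, their direct relatives, the 3 nearest tested protein-coding neighbours on each side and the 2 genes of most similar pattern. The marker genes of cell types are given by counts and sums. Some genes that meet these rules are counted but not reported by name here.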

Additional observations from a re-analysis of the deposited data

How the results depend on the processing

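PDPN was called in all 13 alternatives, at log2 fold changes of -3.67 to -3.59. Among them was the sum of clone 2 and clone 6 replicate 1 as 1 library (-3.66, adjusted p = 0.00104 in edgeR). The adjusted p of PDPN depended on the fit. It was 4.78e-68 in edgeR without a filter on low counts and 9.84e-58 in DESeq2. In the other edgeR fits that kept both wild-type libraries it was 9.75e-08 to 0.00172. EMP3, LGALS3 and FABP5 were called in none of the 13 and kept their sign. The number of the 9 genes called was 1 to 3 over the fits that left out 1 library, both for edited against wild type (3 without clone 6 replicate 2) and for clone 6 against wild type (3 without clone 6 replicate 1, 1 in the others). It was 3 with the replicate block, where OCIAD2 (0.38, adjusted p = 0.0199) and HFE (-0.51, adjusted p = 0.0203) passed beside PDPN. Calls over all genes, edited against wild type, rose in the same fits. They numbered 2822 in the main fit, 5971 without clone 6 replicate 2 and 4499 with the replicate block. The added calls among the 9 genes came with that wider rise. Replicate numbers shared by wild type and clone 6 form 2 pairs whose deviations correlated at 0.172 over genes, which does not establish a pairing. The causes were not tested. Where a fit was left with 1 wild-type library, that library is assumed to vary like the edited group.

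Of all genes tested, 2822 were called, and 4274 without a filter on low counts, 4499 with the replicate block, 1528 with clone 2 and clone 6 replicate 1 summed, and 500 (without wild-type replicate 1) to 5971 (without clone 6 replicate 2) with a library left out. The list genes called numbered 48, and 18 to 76 with a library left out (the highest without clone 6 replicate 2, and 18 and 24 when wild-type replicates 1 and 2 were omitted). Of the 58 called genes outside the 9 in the lists, neighbours and similar patterns, 22 kept their call in every such fit and 0 changed sign in any alternative. Among these 58, TBX3 and IL1R1 had been chosen for a pattern near that of PDPN in the same libraries. The scalings moved the median of all genes by less than 0.1 on the log2 scale and turned no direction among the 9 genes. Low counts limit the precision for PDPN in edited libraries, FABP5 and MGMT, and 2 wild-type libraries that of each comparison with wild type.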
